A study of Mus musculus with 22 samples.

Results

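Regulatory T cells (Tregs) of visceral fat were compared between Bmal1 KO and WT mice kept on a high fat diet for 16 weeks. The comparison takes the 6 RNA-seq libraries that the labels give this diet, age and genotype, 3 KO and 3 WT, of 22 libraries in the series. All 6 came from males aged 30 weeks, whose first 14 weeks were spent on lean food. Each library was made from 1000 Foxp3-YFP+ cells sorted in 2 rounds. Collection was at ZT0, when the lights come on. WT and KO mice alike were of the strain C57BL/6 Foxp3.Cre-YFP, in which Cre and YFP are made by cells that express Foxp3, so WT cells carry the Cre as well. The labels do not name the Bmal1 allele, the part of the gene that is deleted or whether litters were shared. For comparison, the series holds 3 KO and 3 WT libraries from lean mice aged 18 weeks, and as many from mice aged 18 weeks after 4 weeks of high fat diet. Age and weeks on the diet therefore move together and cannot be told apart. Nothing in the labels says that the 3 libraries of a group came from separate animals. The p-values therefore rest on the spread between libraries of a group, estimated over all 18 diet libraries, and not on a known spread between animals.

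BMAL1, encoded by Arntl, pairs with CLOCK or NPAS2 and binds E-box sequences in the promoters of its target genes. Among these targets are the Per and Cry genes, whose proteins repress the BMAL1-CLOCK pair, and the genes of the nuclear receptors REV-ERB alpha and beta (Nr1d1 and Nr1d2), which in turn repress Arntl, Npas2, Cry1 and Nfil3. Tregs of visceral fat form a distinct population in mice, known for PPAR gamma, the IL-33 receptor ST2 (Il1rl1), the chemokine receptor CCR2 and IL-10, and they restrain inflammation of the tissue. The design addresses whether loss of Bmal1 alters this population as the high fat diet is prolonged.

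The 6 libraries held 2514816 to 3467019 gene counts, with at least 1 count in 20547 to 23400 genes. Levels are given as CPM, counts per 1000000 after scaling by the trimmed mean of M values (TMM). For a gene without counts, the limit that a count of 0 allows (3 counts) corresponds to 0.853 to 1.16 CPM, and it covers counting error only. CPM values are not divided by gene length, so levels are compared between libraries and not between genes. The cells carried the T cell and Treg genes of the label: the 7 T cell markers summed to 5092 to 5905 CPM, and Foxp3 stood at 530, 520 and 514 CPM in WT and at 412, 505 and 587 CPM in KO. Cd8a had no count in any of the 6 libraries, while Cd8b1 was at 10.8 to 23.5 CPM in WT and 16.6 to 21.2 CPM in KO.

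Several libraries stood apart. WT library 2 held 181 CPM of Kit, against 4.40 to 18.6 CPM in the other 5, while the mast cell genes Cpa3, Mcpt4 and Tpsb2 were at most 1.83 CPM in all 6. WT library 3 held 659 CPM of Nkg7 and 571 CPM of Ccl5, against at most 184 and 245 CPM elsewhere. KO library 1 held 143 CPM of stromal markers and 59.4 CPM of adipocyte markers, against 4.55 to 15.8 and 3.50 to 13.9 CPM in the others. Fabp4 alone supplied 54.2 CPM of the adipocyte markers in KO library 1, and Adipoq was at most 3.13 CPM in all 6. On the first principal component of log2 CPM, which held 30.7% of the variance, WT library 1 lay at -1.17, between the other WT libraries (-41.9 and -25.8) and the KO libraries (16.8 to 30.2).

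Few genes passed the threshold in the comparison of all genes. Of 11698 genes tested, 1 rose and 4 fell at an adjusted p under 0.05 (edgeR quasi-likelihood F test with Benjamini-Hochberg adjustment, 18 diet libraries in the fit), which is 0.0427% of the genes (0.00855% higher and 0.0342% lower). The gene that rose was Cry1, and those that fell were Per3, Nr1d2, Nr1d1 and Ccr3. An unadjusted p under 0.05 was reached by 1070 genes (9.15%), 370 higher in KO (3.16%) and 700 lower (5.98%). The ranges of the 3 KO and 3 WT libraries did not overlap in 1674 genes (14.3%), of which 781 were higher in KO (6.68%) and 893 lower (7.63%). The median log2 fold change over all genes was 0.00, and 50.3% were positive. These shares are the background for the counts within gene lists given below.

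Of the clock genes, the 4 that passed the threshold were all members of the feedback arms. Their promoter windows, 300 bases from RefSeq GRCm38.p6 that run from 250 bases before the gene start to 50 bases after it, are printed 5′ to 3′ on the gene's strand. Capitals mark matches to 4 clock motifs, each searched on both strands. The first is the E-box CACGTG. The second is its variant CACGTT, which reads AACGTG when it lies on the opposite strand. The third is AGGTCA, the core of the sites that REV-ERB and ROR receptors bind. The last is the D-box TTATGTAA, bound by PAR bZip factors such as DBP. They are shown for the 4 clock genes that passed the threshold.
Per3: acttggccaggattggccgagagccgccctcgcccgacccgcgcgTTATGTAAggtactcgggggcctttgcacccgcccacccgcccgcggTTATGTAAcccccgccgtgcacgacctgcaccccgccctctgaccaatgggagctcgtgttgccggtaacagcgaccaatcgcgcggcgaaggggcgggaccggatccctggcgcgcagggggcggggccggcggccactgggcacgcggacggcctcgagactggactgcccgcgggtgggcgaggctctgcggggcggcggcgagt
Nr1d1: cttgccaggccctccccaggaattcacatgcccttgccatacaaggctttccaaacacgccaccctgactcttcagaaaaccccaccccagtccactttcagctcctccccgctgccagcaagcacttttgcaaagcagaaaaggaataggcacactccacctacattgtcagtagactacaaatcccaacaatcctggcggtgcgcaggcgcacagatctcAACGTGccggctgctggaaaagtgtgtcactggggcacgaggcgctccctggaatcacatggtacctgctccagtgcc
Nr1d2: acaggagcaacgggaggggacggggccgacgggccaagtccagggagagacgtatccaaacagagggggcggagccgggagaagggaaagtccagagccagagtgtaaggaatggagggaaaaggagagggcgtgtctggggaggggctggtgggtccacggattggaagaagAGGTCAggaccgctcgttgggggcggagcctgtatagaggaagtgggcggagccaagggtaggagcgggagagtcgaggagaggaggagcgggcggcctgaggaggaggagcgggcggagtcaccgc
Cry1: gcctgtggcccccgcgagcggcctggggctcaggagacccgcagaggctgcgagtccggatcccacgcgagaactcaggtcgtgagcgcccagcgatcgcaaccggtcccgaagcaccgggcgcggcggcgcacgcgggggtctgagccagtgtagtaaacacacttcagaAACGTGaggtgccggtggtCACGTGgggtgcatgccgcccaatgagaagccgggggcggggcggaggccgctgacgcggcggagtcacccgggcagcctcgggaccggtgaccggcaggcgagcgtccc
The Per3 window (chr4:151044616-151044915, minus strand) held a pair of D-boxes, 205 and 158 bases before the start, and no E-box. The Nr1d1 window (chr11:98775328-98775627, minus strand) held AACGTG 28 bases before the start, and the Nr1d2 window (chr14:18239057-18239356, minus strand) held AGGTCA 77 bases before it. The Cry1 window (chr10:85185005-85185304, minus strand) held CACGTG 60 bases and AACGTG 79 bases before the start. Over 32851 windows of all genes, CACGTG was found in 7.15%, CACGTT in 4.68%, AGGTCA in 16.3% and TTATGTAA in 0.938%. A match describes the letters of the window and is not evidence of binding, and a window without a match says nothing of sites elsewhere in the gene. Of 28 genes looked up, 22 had a window. The windows of Npas2 and Ccr3 held none of the 4 motifs.

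The activators came first among the clock genes. Arntl itself stood at 79.9, 77.5 and 56.4 CPM in WT and at 92.0, 91.4 and 83.2 CPM in KO. All 3 KO libraries lay above all 3 WT libraries, but the difference did not pass the test (log2 fold change 0.32 ± 0.17, SE, adjusted p = 0.628). Counts summed over the gene do not show whether part of the transcript was missing, so the level of Arntl is no check of the deletion. Clock, the partner of BMAL1, ranged from 19.1 to 28.0 CPM in WT and from 15.6 to 25.4 CPM in KO, and Arntl2 had no count in any WT library and at most 0.663 CPM in KO.

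Npas2, which can take the place of CLOCK, stood at 2.84, 5.12 and 3.50 CPM in WT and at 14.7, 21.2 and 11.6 CPM in KO. The ranges did not overlap, and the log2 fold change was 2.04 ± 0.51 (SE), with an adjusted p of 0.201. In KO cells Npas2 was at 55.5 ± 2.48 CPM on the lean diet, and at 4 weeks of high fat diet the value was 60.8 ± 4.26 CPM (SD, n = 3 each), against 15.8 ± 4.90 CPM after 16 weeks. In WT cells it was at 5.14, 6.02 and 3.82 CPM in the same order. The log2 fold change was thus 3.46 on the lean diet and 3.28 after 4 weeks, and the test of the difference from 16 weeks gave adjusted p-values of 0.619 and 0.791.

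Nr1d1, which encodes REV-ERB alpha, stood at 20.2, 31.7 and 16.1 CPM in WT and at 2.20, 1.16 and 0.663 CPM in KO. It fell by 4.05 ± 0.52 on the log2 scale (SE, adjusted p = 0.000478). Nr1d2, which encodes REV-ERB beta, stood at 27.6, 37.1 and 36.4 CPM in WT and at 2.57, 3.08 and 0.663 CPM in KO, and fell by 4.00 ± 0.45 (adjusted p = 9.4e-05). Every KO library lay far below every WT library for both receptors, and the KO values rest on 2 to 8 counts a library. Nr1d1 overlaps Thra on the opposite strand, and the library kit does not mark strand, so reads of the overlap cannot be told apart.

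Per3, a member of the PER family of repressors, stood at 27.9, 19.5 and 17.9 CPM in WT and at 1.47, 0.385 and 1.33 CPM in KO. It fell by 4.28 ± 0.47 on the log2 scale (SE, adjusted p = 9.4e-05), and the KO libraries held 4, 1 and 4 counts. On the lean diet KO cells had 4.43 ± 1.49 CPM against 18.8 ± 4.75 in WT, and after 4 weeks 4.98 ± 2.37 against 15.5 ± 2.63 (SD, n = 3 each). The KO level was lowest after 16 weeks, and the interaction with the lean diet (-2.20 on the log2 scale, adjusted p = 0.314) and with 4 weeks (-2.65, adjusted p = 0.502) did not pass the test.

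The other genes known to be driven by BMAL1 and CLOCK differed less. Ciart, which encodes the repressor CHRONO, stood at 8.53, 13.4 and 7.36 CPM in WT and at 4.40, 6.17 and 3.65 CPM in KO, a difference without overlap that did not pass the test (log2 fold change -1.04 ± 0.39, adjusted p = 0.382). Per1 ranged from 242 to 332 CPM in WT and from 232 to 316 CPM in KO. Dbp, a PAR bZip activator, ranged from 6.72 to 11.1 CPM in WT and from 4.63 to 7.70 CPM in KO, and its relative Tef from 23.1 to 27.2 against 21.6 to 30.1 CPM. Cry2 ranged from 19.8 to 39.0 CPM in WT and from 35.1 to 40.0 CPM in KO. Bhlhe40, which encodes the repressor DEC1, was at 206 to 331 CPM in WT and 365 to 382 CPM in KO, with no overlap and an adjusted p of 0.746. Of the 13 genes on this list 12 were tested, 3 fell, none rose, 6 had a positive fold change and the median was -0.06. Per2 and Hlf were at most 9.60 CPM in the 6 libraries, and the groups overlapped in both genes.

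Cry1, a repressor of BMAL1-CLOCK that REV-ERB holds down, stood at 81.6, 74.3 and 64.1 CPM in WT and at 161, 206 and 156 CPM in KO. It rose by 1.24 ± 0.14 on the log2 scale (SE, adjusted p = 9.4e-05), and every KO library lay well above every WT library. The fold change was 1.32 on the lean diet and 1.20 after 4 weeks, with adjusted p-values of 0.945 and 0.987 for the difference from 16 weeks. Nfil3, a D-box repressor that REV-ERB also holds down, stood at 73.1, 92.2 and 106 CPM in WT and at 56.1, 40.1 and 74.0 CPM in KO (log2 fold change -0.67 ± 0.26, adjusted p = 0.415), opposite in sign to its fold changes of 0.40 on the lean diet and 0.59 after 4 weeks. Of the 5 genes under REV-ERB and ROR control, Cry1 alone rose, none fell, and the median fold change was 0.32. Among 10 tested modifiers of the clock none passed the threshold. Btrc, which encodes a ubiquitin ligase subunit that targets PER proteins, was at 31.0 to 39.2 CPM in WT and 41.1 to 61.3 CPM in KO (adjusted p = 0.443). The casein kinase genes Csnk1d and Csnk1e, which phosphorylate PER proteins, had log2 fold changes of -0.08 and -0.57, and Rora, an activator at REV-ERB sites, of -0.14. Timeless was at 14.7 to 14.8 CPM in WT and 14.3 to 39.2 CPM in KO, with the highest value in KO library 1.

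**Figure D1:**
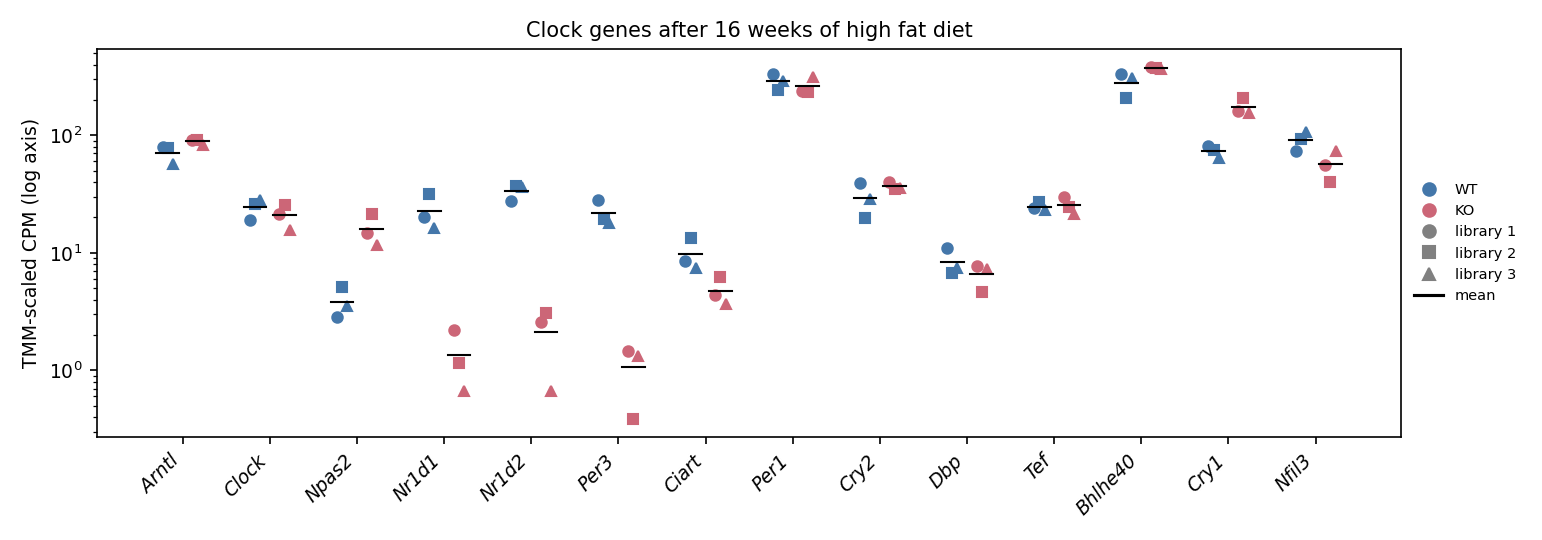
Level of 14 clock genes in each of the 6 libraries, as TMM-scaled CPM on a log axis, with WT in blue, KO in red, 1 marker shape per library number and a bar at the mean of 3 libraries. Nr1d1, Nr1d2 and Per3 lie at or under 3.08 CPM in all KO libraries and at or above 16.1 CPM in all WT libraries, while Cry1 and Npas2 lie higher in every KO library.

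Ccr3 (chr9:124021972-124031689, mm10, plus strand) was the gene outside the clock that passed the threshold. It encodes a receptor for eotaxins and other CC chemokines, best known on eosinophils. Ccr3 stood at 69.7, 156 and 156 CPM in WT and at 24.2, 29.7 and 38.8 CPM in KO. All KO libraries lay below all WT libraries, and the WT library nearest to them was library 1. It fell by 2.03 ± 0.30 on the log2 scale (SE, adjusted p = 0.00368), which is 4.09-fold lower. Without KO library 1 the log2 fold change was -1.88 and no longer passed the test (edgeR, adjusted p = 0.0767). Fewer cells of a type and less RNA per cell cannot be told apart in bulk libraries. The eosinophil genes Siglecf and Epx were at most 1.40 and 1.05 CPM in the 6 libraries, and Prg2 was under 1 CPM in all of them.

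On the other diets the genotypes had overlapping Ccr3 levels. On the lean diet it was at 170 ± 37.3 CPM in WT and 172 ± 39.0 CPM in KO, and after 4 weeks of high fat diet at 138 ± 48.3 and 162 ± 30.8 CPM (SD, n = 3 each), against 127 ± 49.9 and 30.9 ± 7.38 CPM after 16 weeks. WT levels overlapped between the 3 diets, and the KO libraries of 16 weeks were the lowest of all 18. The difference in KO effect was -2.06 ± 0.41 on the log2 scale against the lean diet (adjusted p = 0.123) and -2.26 ± 0.41 against 4 weeks (adjusted p = 0.249), so neither interaction passed edgeR's test. DESeq2 called Ccr3 in both (adjusted p = 0.00232 and 0.0027). Without WT library 1 of 16 weeks both also passed edgeR's test, at -2.35 (adjusted p = 0.00944) and -2.54 (adjusted p = 0.00708).

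No other chemokine receptor passed the threshold. Of 16 tested, 5 had an unadjusted p under 0.05, all lower in KO (31.2%, against 5.98% of all genes). However, 7 had a positive fold change and the median was -0.07. Ccr2, the receptor for CCL2 and a neighbour of Ccr3 on chromosome 9, stood at 308, 622 and 451 CPM in WT and at 207, 269 and 277 CPM in KO (log2 fold change -0.87 ± 0.22, adjusted p = 0.201). Cxcr6, the receptor for CXCL16, stood at 573, 1101 and 1505 CPM in WT and at 374, 528 and 371 CPM in KO (-1.32 ± 0.35, adjusted p = 0.233). Neither gene's groups overlapped, yet in both WT library 1 lay nearer to the KO libraries than to the other WT libraries. Ccr9, the gut-homing receptor for CCL25, ranged from 63.7 to 126 CPM in WT and from 20.5 to 55.1 CPM in KO. Ccr1 was at 118 CPM in WT library 2 and at 7.70 to 16.3 CPM in the other 5, and its fold change of -1.92 turned to 0.055 without that library. Cxcr6 overlaps Fyco1 on the opposite strand, and Ccr9 overlaps Lztfl1 and Slc6a20a. Foxp3, Dbp, Ciart, Fgl2, Myd88, Itgae, Srebf1 and Lyn also overlap genes on the opposite strand, and Per3 overlaps Camta1 on the same strand.

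Receptors of lymphoid tissue varied most within WT. Ccr7, which guides cells to lymph nodes, was at 299 CPM in WT library 1, 28.8 and 77.4 CPM in WT libraries 2 and 3, and 116 to 131 CPM in KO. S1pr1, the egress receptor, was at 436, 182 and 257 CPM in WT and 317 to 377 CPM in KO, and Ccr6 at 37.8, 10.9 and 4.91 CPM in WT and 26.9 to 38.9 CPM in KO. In all 3 genes the KO libraries lay inside or close to the WT range. Ccr8 and Ccr4, found on tissue Tregs, had folds of -0.01 and 0.23 on the log2 scale.

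The genes of the adipose tissue Treg signature were mostly lower in KO. Ccr3 alone of the 28 tested members fell, and none rose. A positive fold change was seen in 6 of 28, against 50.3% of all genes, and the median was -0.37. An unadjusted p under 0.05 was reached by 12 members on the lower side (5.98% of all genes) and by 1 on the higher side. On the lean diet and after 4 weeks the same list had positive medians, 0.31 and 0.28. The list was assembled with results of these data known, so its direction is a description and not independent evidence.

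Within the signature, the members of smallest p were Ccr3, Ccr2, Cxcr6, Id2 and Klrg1. Klrg1, a receptor of terminally differentiated effector Tregs, stood at 450, 1357 and 806 CPM in WT and at 340, 591 and 411 CPM in KO (log2 fold change -0.96 ± 0.30, adjusted p = 0.310). Id2, a regulator of E proteins, stood at 161, 325 and 296 CPM in WT and at 145, 173 and 174 CPM in KO (-0.66 ± 0.19, adjusted p = 0.243). In both genes WT library 1 lay within the KO range and WT libraries 2 and 3 above it. The defining regulators differed less: Gata3 ranged from 1205 to 2211 CPM in WT and from 1058 to 1373 CPM in KO, Pparg from 11.4 to 29.8 against 7.33 to 26.6 CPM, and Il1rl1 from 247 to 771 against 279 to 337 CPM. Irf4, Batf and Prdm1, which drive effector Tregs, had log2 fold changes of -0.32, 0.20 and -0.23. Areg, the tissue repair factor amphiregulin, was at 288 to 831 CPM in WT and 357 to 535 CPM in KO.

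**Figure D2:**
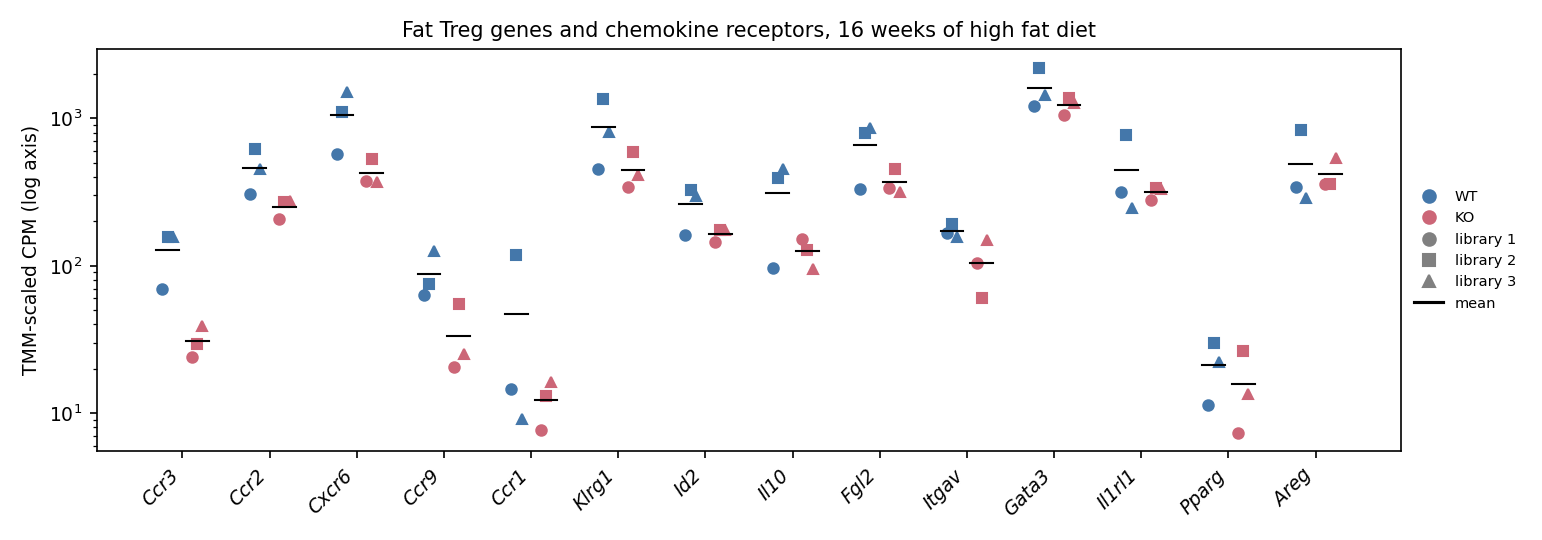
Level of 14 genes of fat Tregs and chemokine receptors in each library, as TMM-scaled CPM on a log axis, with the same colours and shapes as for the clock genes and a bar at the mean. Ccr3 has the smallest adjusted p of the genes shown, and for Klrg1, Id2, Il10 and Fgl2 WT library 1 (blue circle) lies among the KO libraries.

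Summed over the signature, WT libraries held 7399, 12991 and 11418 CPM and KO libraries 7397, 7724 and 7454 CPM. The 3 KO sums were close together, WT library 1 lay inside their range, and WT libraries 2 and 3 lay above it. The WT spread therefore exceeds the KO spread, and the groups overlap through 1 library. The sum of resting and lymphoid tissue T cell genes ran the other way, at 2095 CPM in WT library 1, 964 and 1110 CPM in WT libraries 2 and 3, and 1410 to 1513 CPM in KO. Without WT library 1, 5 signature genes fell, namely Ccr3, Id2, Ccr2, Klrg1 and Cxcr6, and the median was -0.51. Without WT library 2 the median was -0.20, and 8 members in place of 12 had an unadjusted p under 0.05 on the lower side. Without KO library 1 there were 9 such members and none passed the threshold. Without KO library 1 and WT library 2 together the median was -0.28, 5 members had such a p and 11 of 28 folds were positive.

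Some markers listed for other cells were highest in WT library 2 or WT library 3. The 9 markers of type 2 innate lymphoid cells summed to 3632 CPM in WT library 2 and to 1645 to 2065 CPM in the other 5. WT library 2 was the highest of the 6 in 6 of the 9, namely Gata3, Il1rl1, Rora, Kit, Il5 and Arg1. Gata3, which fat Tregs also make, supplied 65.4% of the sum over the 6 libraries, Il1rl1 17.4% and Rora 14.1%. Gata3, Il1rl1 and Rora are also members of the signature list, so the sum and the signature share these genes. The cytokine gene Il13 and the enzyme gene Arg1 were at most 1.93 and 3.20 CPM in all 6. The 11 cytotoxic markers summed to 1302 CPM in WT library 3 and to 295 to 429 CPM in the other 5. In WT library 3, Nkg7 supplied 659 and Ccl5 571 CPM of it. WT library 3 was the highest of the 6 in 6 of the 11. Prf1 ranged from 9.60 to 42.0 CPM in WT and from 8.80 to 11.6 CPM in KO. Ncr1 was at most 1.83 CPM and Eomes at most 0.770 CPM in the 6 libraries. The part of such cells in the level of the signature was not tested.

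Effector molecules of Tregs also differed within WT. Il10 stood at 96.7, 393 and 452 CPM in WT and at 151, 128 and 95.5 CPM in KO (log2 fold change -1.33 ± 0.46, adjusted p = 0.351). Fgl2, a secreted suppressor of T cells, stood at 332, 794 and 861 CPM in WT and at 339, 451 and 318 CPM in KO (-0.84 ± 0.30, adjusted p = 0.370). WT library 1 lay within the KO range in both. None of 13 tested members passed the threshold, and 4 had an unadjusted p under 0.05 on the lower side (30.8%, against 5.98% of all genes). The list's median of -0.17 turned to 0.01 without WT library 2 and was -0.34 without WT library 1. Without WT library 3 the 4 became 2. The remaining one of the 4 beside Klrg1, Il10 and Fgl2 was the prostaglandin synthase gene Ptges2, at 4.91 to 7.68 CPM in WT and 0.385 to 3.65 CPM in KO. Tgfb1, Ebi3, Lgals1 and Penk had log2 fold changes between -0.17 and 0.32. Il5, a cytokine that sustains eosinophils, was at 40.1, 53.1 and 8.06 CPM in WT and 6.94 to 12.3 CPM in KO (adjusted p = 0.337).

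Genes of Treg identity showed no member past the threshold and none with an unadjusted p under 0.05. The median of the 14 was 0.03, 8 were positive and no member's groups were apart. Foxp3 had a log2 fold change of -0.06 ± 0.11, Ikzf2, which encodes Helios, of 0.01 ± 0.13, Il2ra of 0.04 ± 0.18 and Ctla4 of -0.11 ± 0.15 (SE). A value that misses the threshold does not show that the groups are alike. Itgae, the integrin CD103, ranged from 9.28 CPM in WT library 2 to 168 CPM in WT library 1, a wider span than the 50.1 to 117 CPM of KO. Of the receptors of the IL-33 and IL-1 family, 2 of 11 had an unadjusted p under 0.05, both higher (18.2%, against 3.16% of all genes). They were Il18r1 (76.5 to 121 CPM in WT, 147 to 162 CPM in KO, adjusted p = 0.314) and the adaptor Myd88 (66.9 to 80.2 and 79.3 to 111 CPM). Cd200r1, an inhibitory receptor, was at 139, 294 and 258 CPM in WT and 133 to 149 CPM in KO (adjusted p = 0.328).

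Genes induced within minutes of T cell receptor or stress signals were mostly lower in KO. None of 30 passed the threshold, while 13 had an unadjusted p under 0.05 on the lower side (5.98% of all genes) and 1 on the higher side, 5 were positive and the median was -0.38. On the lean diet and after 4 weeks the median was 0.44 and 0.11. Fos, a subunit of AP-1, stood at 1018, 1392 and 1674 CPM in WT and at 760, 930 and 813 CPM in KO (log2 fold change -0.71 ± 0.22, adjusted p = 0.311). Dusp5, a phosphatase that acts on ERK, stood at 186, 263 and 234 CPM in WT and at 129, 154 and 152 CPM in KO (-0.65 ± 0.16, adjusted p = 0.201). Dusp2, another such phosphatase, stood at 328, 234 and 388 CPM in WT and at 75.1, 36.6 and 186 CPM in KO (-1.67 ± 0.55, adjusted p = 0.313). In these 3 genes the groups did not overlap, and the same was true of Fosl2, Egr1, Jund, Dusp1 and Cd69. Dusp4 went the other way, at 60.8 to 68.0 CPM in WT and 101 to 107 CPM in KO (0.69 ± 0.20, adjusted p = 0.243). Without KO library 1, 5 members in place of 13 had an unadjusted p under 0.05 on the lower side.

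Cell cycle genes were mostly higher in KO. Of 40 tested none passed the threshold, but 39 had a positive fold change, 19 had an unadjusted p under 0.05 on the higher side (3.16% of all genes), in 16 the KO libraries all lay above the WT libraries (6.68% of all genes), and the median was 0.72. On the lean diet the median was -0.06 and after 4 weeks 0.18. E2f2, a transcription factor of the entry to S phase, stood at 20.8, 12.5 and 26.6 CPM in WT and at 42.5, 40.9 and 38.8 CPM in KO (log2 fold change 1.03 ± 0.23, adjusted p = 0.132). Cdk1, the kinase of mitosis, stood at 9.67, 10.9 and 18.6 CPM in WT and at 41.8, 22.0 and 36.5 CPM in KO (1.37 ± 0.43, adjusted p = 0.311). Mcm5, a subunit of the replicative helicase, stood at 64.8, 77.1 and 96.7 CPM in WT and at 237, 130 and 122 CPM in KO (1.04 ± 0.29, adjusted p = 0.243). KO library 1 was the highest of the 6 in these 3 genes. Ccne2, a cyclin of S phase entry, and Mcm7, another helicase subunit, had log2 fold changes of 1.97 and 0.78 (adjusted p = 0.281 and 0.311). Mki67, the proliferation marker, ranged from 29.9 to 48.0 CPM in WT and from 49.0 to 74.3 CPM in KO (adjusted p = 0.607).

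The summed level of the cell cycle list was 1486, 1760 and 1856 CPM in WT and 3289, 2209 and 2338 CPM in KO, so the groups were apart with KO library 1 farthest out. That library also had the highest sums of stromal and adipocyte markers, the latter mostly from Fabp4 (54.2 of 59.4 CPM). Without it the median fold change was 0.61 and 8 members in place of 19 had an unadjusted p under 0.05, and without WT library 1 the values were 0.79 and 10. Without KO library 1 and WT library 2 together the median was 0.52, 7 members had such a p and 39 of 40 folds were positive. Whether other cells in KO library 1 contribute to the list was not tested.

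**Figure D3:**
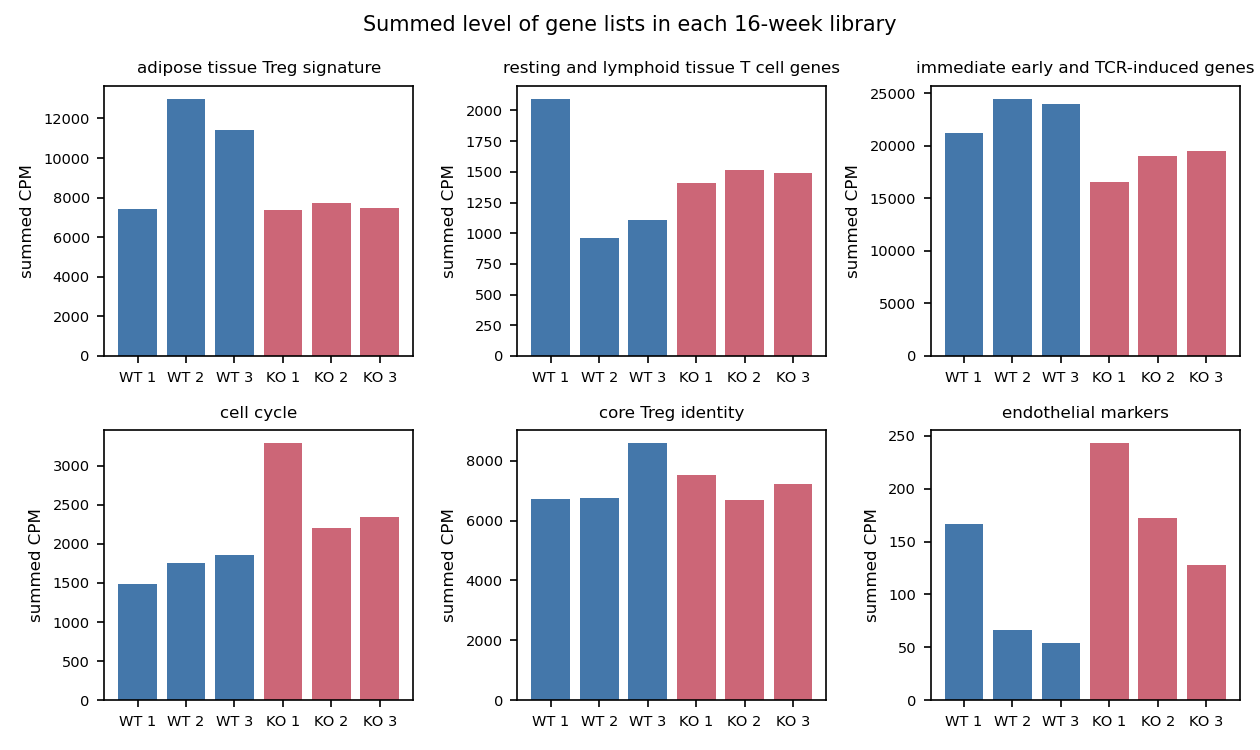
Summed CPM of 6 gene lists in each library, with WT in blue and KO in red and bars from 0. WT library 1 resembles the KO libraries in the adipose tissue Treg signature, all KO libraries lie above all WT libraries in the cell cycle list, and the endothelial markers are led by Pecam1.

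Interferon-stimulated genes had a positive fold change in 28 of 31, with a median of 0.27, against medians of -0.18 on the lean diet and -0.33 after 4 weeks. None passed the threshold, and 2 had an unadjusted p under 0.05, both higher (6.45%, against 3.16% of all genes). They were Oas3 (28.2 to 46.3 CPM in WT, 50.2 to 62.4 CPM in KO, adjusted p = 0.526) and Ifih1, an RNA sensor (19.2 to 25.9 and 28.5 to 41.1 CPM, adjusted p = 0.533). WT library 2 had the lowest summed level, 2022 CPM against 2627 to 2901 CPM in the other 5, and without it the median was 0.09. With single libraries left out, 0 to 4 members had such a p. Among 16 NF-kB targets the median was 0.00, and 2 had an unadjusted p under 0.05, both higher (12.5%, against 3.16% of all genes). They were Relb (96.7 to 130 CPM in WT, 144 to 152 CPM in KO) and Nfkbie (76.4 to 85.9 and 96.8 to 108 CPM). Neither kept such a p without WT library 2, WT library 3 or any 1 KO library.

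Among resting T cell genes 1 of 12 had an unadjusted p under 0.05 (8.33%), on the lower side, where the share of all genes was 5.98%. It was the transcriptional repressor gene Bach2 (18.9 to 27.3 CPM in WT, 14.3 to 15.4 CPM in KO, adjusted p = 0.440). The integrin gene Itgav, whose product activates TGF-beta, was the only gene of 16 in its list with such a p, also lower (6.25%). It was at 157 to 192 CPM in WT and 60.1 to 150.2 CPM in KO (adjusted p = 0.395). Both shares were near that of all genes. Art2b, an ADP-ribosyltransferase of the T cell surface, stood at 89.6, 50.6 and 83.4 CPM in WT and at 45.8, 23.5 and 37.1 CPM in KO, without overlap (adjusted p = 0.299).

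Lists of death, stress and metabolism had medians between -0.11 and 0.14, with no member past the threshold. Bax, which opens mitochondria in apoptosis, stood at 109, 105 and 103 CPM in WT and at 71.8, 66.7 and 74.0 CPM in KO, with little spread in either group (log2 fold change -0.58 ± 0.14, adjusted p = 0.201). Phlda3, a target of p53, was at 4.26 to 7.36 CPM in WT and 0.385 to 1.33 CPM in KO (adjusted p = 0.376). Ldha, which makes lactate, had a log2 fold change of 0.22 without overlap of the groups (adjusted p = 0.537), and the chaperone partner Bag3 was at 54.3 to 84.8 and 44.1 to 54.6 CPM (adjusted p = 0.519). Egln3, an oxygen sensor, ranged from 14.5 to 42.6 CPM in WT and from 3.32 to 12.1 CPM in KO (adjusted p = 0.201). Of 26 sterol and fatty acid synthesis genes, 4 had an unadjusted p under 0.05, all lower (15.4%, against 5.98% of all genes). Among them were Srebf1, the master regulator of lipid synthesis (135 to 149.6 CPM in WT, 103 to 123 CPM in KO, adjusted p = 0.361), and the isoprenoid synthesis gene Idi1, at most 2.84 CPM in the 6 libraries. Without KO library 1 the 4 became 1, and without KO library 2 they became 2. Plin2, which coats lipid droplets, was at 178, 597 and 373 CPM in WT and 198 to 249 CPM in KO. The fatty acid transporter Cd36 was at 119 CPM in KO library 1 and at 1.75 to 14.1 CPM in the other 5, and the fatty acid binding protein Fabp4 was at 54.2 CPM there, 9.25 and 9.95 CPM in the other KO libraries and 1.40 to 4.83 CPM in WT.

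**Figure D4:**
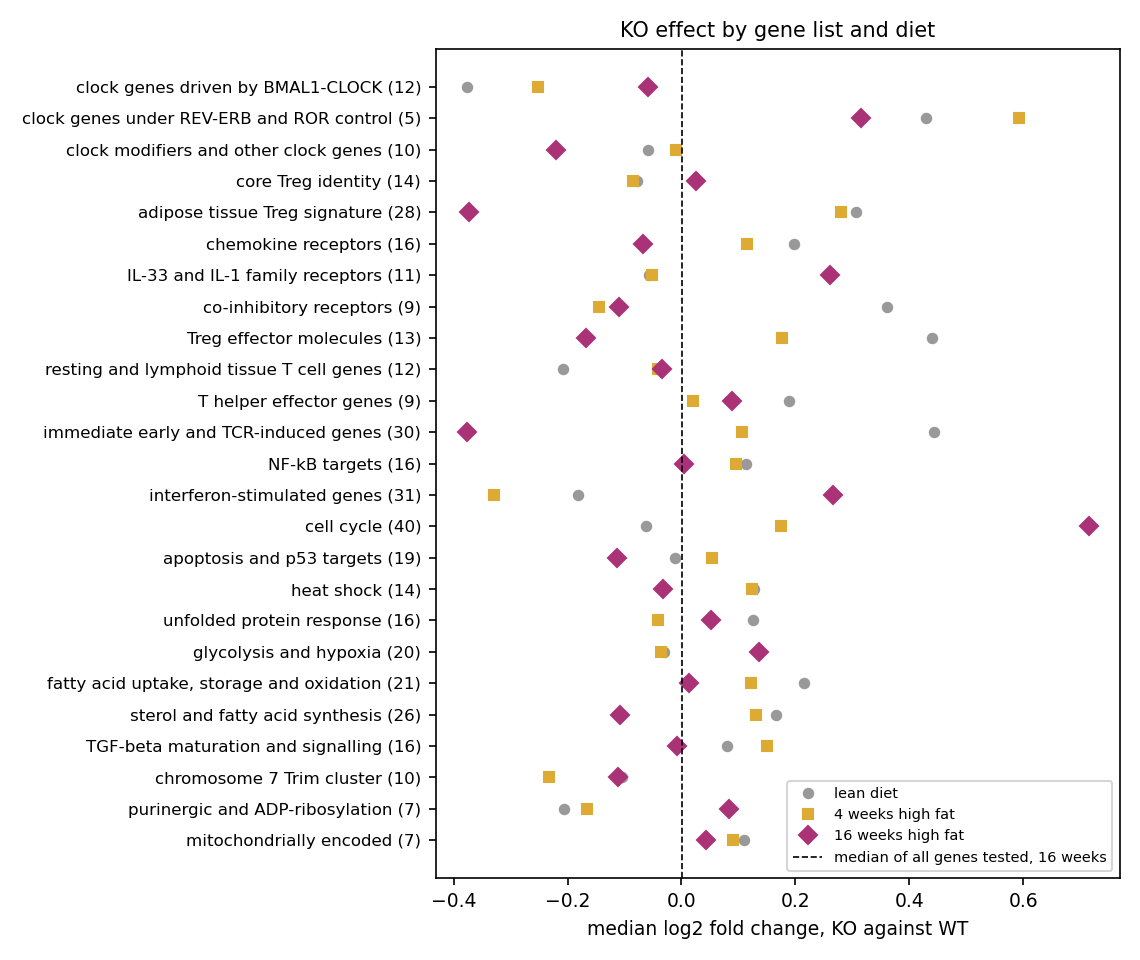
Median log2 fold change of KO against WT for 25 gene lists on the lean diet (grey), after 4 weeks (yellow) and after 16 weeks of high fat diet (purple), with the number of genes tested in parentheses and a dashed line at the median of all genes. The cell cycle list lies highest after 16 weeks at 0.72, and the adipose tissue Treg signature and the immediate early genes lie lowest at -0.37 and -0.38, opposite in sign to their medians on the other diets.

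Beyond the groups above, the genes of smallest p did not pass the threshold. Higher in KO were Cldn5, a tight junction protein of endothelium (0, 0.960 and 0 CPM in WT, 38.9, 11.2 and 5.64 CPM in KO, adjusted p = 0.0994), Tspoap1, Lrrn3, Ckb, Ass1 and Fignl1, each with KO libraries all above WT libraries. Ass1, an enzyme of arginine synthesis, stood at 163, 89.9 and 122 CPM in WT and at 225, 189 and 197 CPM in KO (adjusted p = 0.201). The 9 endothelial markers summed to 166, 66.6 and 54.0 CPM in WT and 243, 173 and 128 CPM in KO, of which Pecam1, also made by T cells, supplied 80.9%. In 5 of the 9, Cldn5, Cdh5, Tek, Egfl7 and Flt1, all KO libraries lay above all WT libraries. The share over all genes tested was 6.68%, but only 2 of the 9 had enough counts to be tested. The lowest KO values of Cdh5, Tek and Flt1 were 1.00, 0.66 and 1.00 CPM. These lie near or under the level of 3 counts, 0.995 to 1.16 CPM in KO. KO library 1 was the highest of the 6 in 7 of the 9, among them Esam at 22.0 CPM and Kdr at 13.9 CPM, against at most 2.56 and 3.13 CPM in WT. Cdh5, Tek, Emcn and Flt1 were at most 5.50 CPM in all 6. The part of endothelial cells in the level of Cldn5, Cd36 and Fabp4 was not tested. Lower in KO were Yars2, a mitochondrial tRNA synthetase (17.1, 23.4 and 20.7 CPM in WT, 1.10 to 3.32 CPM in KO, adjusted p = 0.107), the transporter gene Slco3a1 (43.2 to 49.6 and 14.3 to 28.5 CPM, adjusted p = 0.107), the vesicle transport gene Rab2a (33.3 to 40.3 and 17.6 to 20.4 CPM, adjusted p = 0.112) and the kinase gene Lyn. Lyn stood at 78.2, 206 and 125 CPM in WT and at 45.8, 69.0 and 58.0 CPM in KO (log2 fold change -1.24 ± 0.27, adjusted p = 0.132), and its fold changes on the other diets were 0.58 and 0.37.

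Single genes near Arntl on chromosome 7 stood far apart between the groups without passing the threshold in the reported fit. Of 10 genes tested in the Trim cluster, 3 were higher and 4 lower at an unadjusted p under 0.05 (30% and 40%, against 3.16% and 5.98% of all genes). Within 20 Mb of Arntl 274 genes were tested, of which 9 were higher and 18 lower at an unadjusted p under 0.05, together 9.85%, against 9.15% of all genes. The region holds a cluster of Trim genes, ubiquitin ligases of which several restrict viruses, and Trim12a and Trim30d lie 8.91 and 8.74 Mb before Arntl. Trim12a (chr7:104299894-104315466, mm10, GENCODE M21) stood at 39.8, 72.0 and 79.9 CPM in WT and had no count in any KO library, which is at least 59.0-fold lower against 3 counts in each KO library (edgeR, adjusted p = 0.112). Trim30d stood at 19.1, 28.8 and 30.8 CPM in WT and at 0, 1.93 and 0 CPM in KO (adjusted p = 0.0715), and Trim5 at 15.9, 27.2 and 21.4 against 0.367, 1.93 and 0 CPM (adjusted p = 0.201). Outside the cluster, the predicted gene Gm1966 stood at 79.0, 84.2 and 127 CPM in WT and at 6.96, 22.0 and 7.30 CPM in KO (adjusted p = 0.107), and Ypel3 at 48.1, 60.2 and 48.7 against 15.0, 22.4 and 29.8 CPM (adjusted p = 0.201). Over 28 alternatives to the reported fit, Trim12a was called in 7 and Trim30d and Gm1966 in 8 each. With the 6 libraries alone their adjusted p-values were 0.000919, 0.00783 and 0.00575, and with DESeq2 0.0313, 0.0195 and 0.0264. Dnajb13, which overlaps Ucp2 on the opposite strand, ranged from 39.5 to 83.5 CPM in WT and from 22.0 to 33.8 CPM in KO.

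Of the other Trim genes, Trim21 and Trim34b went the other way. Trim21, a cytosolic antibody receptor, stood at 34.7, 2.88 and 5.25 CPM in WT and at 77.0, 91.0 and 83.2 CPM in KO (adjusted p = 0.311), and Trim34b at 4.83, 0.640 and 1.40 against 10.6, 10.8 and 11.9 CPM. WT library 1 was intermediate in Trim12a, Trim21 and Trim34b, the same library that lay near the KO libraries in the fat Treg signature. Whether the Trim levels and the signature are related was not tested. Trim30a and Trim12c, within the same cluster, had log2 fold changes of 0.10 and 0.52. On the other diets 1 library of each group was likewise intermediate. In WT, Trim12a was at 60.1, 76.8 and 35.3 CPM on the lean diet and at 63.9, 61.1 and 35.5 CPM after 4 weeks, beside Trim21 at 2.40, 5.97 and 28.5 and at 4.21, 1.59 and 37.0 CPM. In KO, Trim12a was at 26.5, 0 and 0 CPM on the lean diet and 26.9, 0 and 0 CPM after 4 weeks, beside Trim21 at 25.4, 46.1 and 61.2 and at 26.9, 52.3 and 59.9 CPM. The library with the intermediate Trim12a level had the highest Trim21 level of its group in WT and the lowest of its group in KO. In Trim21 that WT library (28.5 and 37.0 CPM) lay above that KO library (25.4 and 26.9 CPM) on both diets. Several Trim genes of the cluster, such as Trim12a and Trim12c, are close copies of each other. Reads of 38 bases may be shared or lost between such copies, and their separate levels are uncertain. Trim21 lies 10.65 Mb before Arntl and Trim12a 8.91 Mb.

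**Figure D5:**
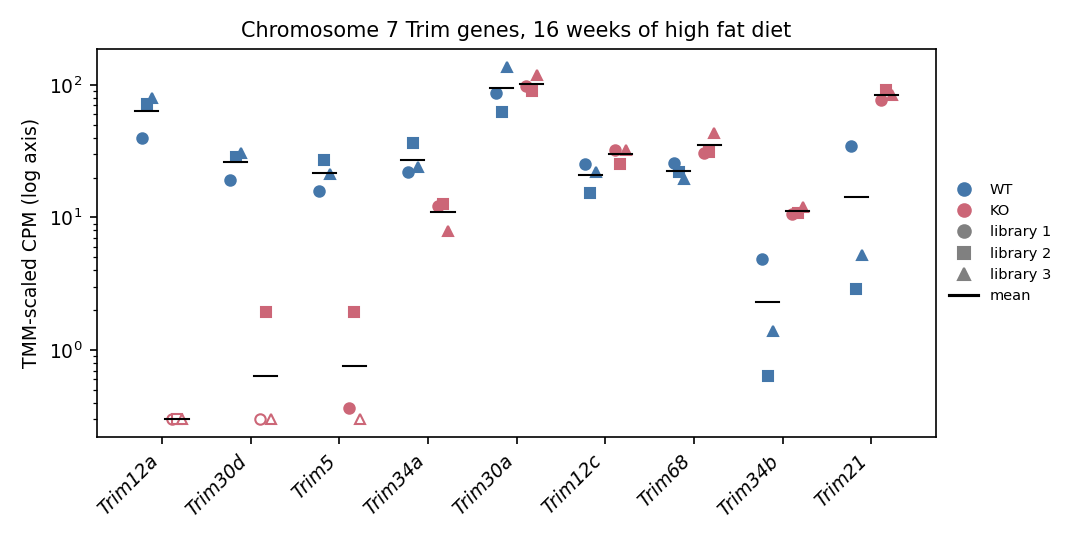
Level of 9 Trim genes of chromosome 7 in each library, as TMM-scaled CPM on a log axis, with open markers for libraries at 0 drawn at 0.3 CPM and a bar at the mean. Trim12a, Trim30d and Trim5 lie near or at 0 in KO, Trim21 and Trim34b lie higher in KO, and WT library 1 (blue circle) is between the groups for Trim12a, Trim21 and Trim34b.

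Whether the KO effect after 16 weeks differed from that on the other diets was tested gene by gene. No gene passed in either contrast (edgeR, 0 of 11698). Against the lean diet 993 genes (8.49%) had an unadjusted p under 0.05, DESeq2 called 27 genes and limma voom none. Against 4 weeks 784 genes (6.7%) had an unadjusted p under 0.05, DESeq2 called 1 gene, Ccr3, and limma voom none. The smallest p-values against the lean diet included Fos and Egr1, immediate early transcription factors that in KO were above WT on the lean diet and below WT after 16 weeks. Fos was at 2084 ± 927 CPM in WT and 4175 ± 479 CPM in KO on the lean diet and at 1362 ± 329 and 834 ± 87.1 CPM after 16 weeks (SD, n = 3), an interaction of -1.71 ± 0.32 on the log2 scale (SE, adjusted p = 0.123). Egr1 gave -1.95 ± 0.37 (adjusted p = 0.123). Zswim4 was also on the lower side at -1.56, and Ttll12, Atp11b and the pattern receptor gene Nod1 were on the higher side at 1.55, 1.36 and 2.13 (adjusted p = 0.123 to 0.242).

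Against 4 weeks, the genes of smallest p on the lower side were Ccr3, Cxcl2 and Mynn, and on the higher side Prkcsh, Cdk5rap3 and Pkp4. Cxcl2, a chemokine that attracts neutrophils, stood at 101, 608 and 197 CPM in WT and at 69.6, 49.7 and 83.6 CPM in KO after 16 weeks, with the highest value in WT library 2. On the other diets KO cells had more Cxcl2 than WT cells on average, 493 ± 73.0 against 247 ± 144 CPM on the lean diet and 435 ± 116 against 196 ± 87.0 CPM after 4 weeks (SD, n = 3). The interactions were -3.15 (adjusted p = 0.133) and -3.30 (adjusted p = 0.502). Nr1d1, Nr1d2 and Cry1 had interactions of at most 1.00 in size on the log2 scale, with adjusted p-values of 0.743 to 0.994.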

How the data were processed

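RNA-seq gene counts of 18 diet libraries were used, and the 4 transfer libraries were left out. The authors deposited integer counts per gene with no scaling. The submitters' processing notes name STAR 2.7.3a, featureCounts and mm10, without the role of each, the annotation or whether strand was used. Paired reads of 38 bases came from oligo(dT)-primed, PCR-amplified and tagmented cDNA, per the labels' protocols, so PCR copies are counted as reads. All columns were matched by their labels.

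From these counts, genes were kept with the edgeR 4.0.16 filter (minimum count 10), 11698 of 55011. Libraries were scaled by TMM and fitted with a mean per group, quasi-likelihood F tests and Benjamini-Hochberg adjustment at 0.05 in R 4.3.3. The scripts were tested on simulated data. Lists are described by counts and medians without a set test. Positions come from GENCODE M21. Alternatives included DESeq2 1.42.0 and limma 3.58.1 voom.

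The genes named were chosen from all that passed the threshold, all clock list members, the 10 smallest p in each direction with at least 5 CPM, up to 5 per list with an unadjusted p under 0.05, the 3 smallest p per interaction and direction, and up to 6 per direction within 20 Mb of Arntl. Others were chosen after their values were seen. A few members are not reported here. The members and lists were chosen with earlier results of these data known.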

Additional observations from a re-analysis of the deposited data

How the results depend on the processing

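After 16 weeks 5 genes were called. The call count was 428 without a filter on low counts, 44 with DESeq2, 3 with limma voom with quality weights, 50 with the 6 libraries alone and 73 with these and a replicate block, and the cause was not tested. RLE scaling and a minimum count of 30 gave 5 and the robust spread 4. Leaving out single libraries gave 4 to 35 calls. The 35 came without WT library 1, 9 without KO lean library 1 and 8 without KO 4-week library 1. Over 28 alternatives to the reported fit, which is not counted among them, Ccr3 was called in 24, with an adjusted p from 8.36e-27 to 0.323. It was lost with limma voom (0.0714), the robust spread (0.0759), without KO library 1 (0.0767) and without KO library 1 and WT library 2 together (0.323). Cry1, Nr1d2 and Per3 were called in all 28 and Nr1d1 in 27. KO library 1 and WT library 2 left out together, chosen after seeing the data, gave 4. The interaction with the lean diet gave 258 calls with no filter, 27 with DESeq2, 11 with the replicate block and 0 to 36 without single libraries (36 without WT library 1, 15 without WT lean library 1). That with 4 weeks gave 211, 1, 3 and 0 to 3.

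The labels do not say whether same-numbered libraries shared more than a number. After 16 weeks their deviations from the group means correlated at 0, 0.033 and 0.009, which cannot show whether litters were shared. The replicate block gave 8 calls, the 5 above with Lyn, Gm1966 and Anxa1, and brought both interactions of Ccr3 past the threshold (adjusted p = 0.043 and 0.0409), as did DESeq2 and no filter. Of the uncalled genes, the log2 fold change of Hlf turned to -0.0015 with no filter. With single libraries left out it ran from -0.25 to 0.475 for Hlf, -0.099 to 0.15 for Tef, -2.40 to 0.055 for Ccr1 and -0.32 to 1.59 for Per2. With KO library 1 and WT library 2 left out it was -0.021 for Tef and 0.31 for Ccr1. Values under 10 CPM are limited by counts.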

Other observations

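Leaving out WT library 1 brought 35 calls, 7 higher and 28 lower. Of them, 19 were also among the 44 genes that DESeq2 called with all libraries, and 9 among the 50 called with the 6 libraries alone. These fits share libraries, so the overlap is not independent evidence. Besides the fat Treg genes named above, the 35 held Lgals3, which encodes galectin-3, at 91.6, 247 and 238 CPM in WT and 83.2, 101 and 74.0 CPM in KO. Anxa1, which encodes the lipid-binding annexin A1, was at 141, 544 and 309 CPM in WT and 78.4, 169 and 117 CPM in KO. Runx2, a transcription factor of the RUNT family, was at 64.3, 99.2 and 137 CPM in WT and 59.0, 45.5 and 49.1 CPM in KO. With all libraries their adjusted p-values were 0.233, 0.243 and 0.132. These genes were chosen after their values were seen.

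Of the B and plasma cell markers, Ighm supplied 95.6% of the summed level. Ighm ranged from 381 to 937 CPM in WT and from 775 to 1238 CPM in KO, while Ms4a1 was at most 2.28 CPM and Cd79a at most 2.20 CPM in the 6 libraries. Cd79b ranged from 7.04 to 14.8 CPM in WT and from 14.9 to 26.8 CPM in KO, without overlap. Igkc ranged from 1.92 to 6.54 CPM in WT and from 3.86 to 38.9 CPM in KO. KO library 1 was the highest of the 6 in 7 of the 11 markers. The part of B cells in these levels was not tested. Lrrn4 and Epcam supplied 53.1% and 45.1% of the mesothelial and epithelial markers, and Lrrn4 was at 192 CPM in WT library 2 against 32.1 to 84.8 CPM in the other 5.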
